A study of Mus musculus with 12 samples.

Results

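The sterol-specific arm of cholesterol synthesis was followed through 9 enzymes, from squalene synthase to the final reductase: Fdft1, Sqle, Lss, Cyp51, Msmo1, Nsdhl, Hsd17b7, Ebp and Dhcr7. The members were chosen by gene name as enzymes that act after farnesyl diphosphate and serve sterols only. All 9 of the 24318 gene rows were found in both tables, and all 9 passed the filter on low values. RNA was read in 12 libraries made from N2a, a mouse neuroblastoma line used in culture as a neuronal model. The cells had been given BDEVs (brain-derived extracellular vesicles, the small membrane particles that tissue releases) of the SE kind, BDEVs of the CON kind, or vehicle, with 4 libraries in each group. SE is status epilepticus, a prolonged seizure, by the title of the series, and what CON abbreviates is not spelled out in the labels. The groups therefore share 1 cell line and differ, as far as the labels say, in what was added and in library number. The library names number SE-BDEV and CON-BDEV in turn and all Vehicle libraries last. That order cannot be told apart from vesicles against Vehicle, and its part was not tested. The labels give no vesicle dose, no exposure time, no genotype or age of the brain donors, and no statement that libraries of a group were separate cultures or vesicle preparations. The p-values thus measure the spread between these libraries, which may be technical.

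Cells build cholesterol in the endoplasmic reticulum. Squalene synthase commits farnesyl diphosphate to sterols, the epoxidase and the cyclase turn squalene into the ring system of lanosterol, and a chain of demethylating, isomerising and reducing enzymes trims lanosterol to cholesterol. The genes of the arm are classic targets of SREBP2, a membrane-bound transcription factor that is held in the endoplasmic reticulum while sterols are plentiful and is cut loose when they run low. In brain the pathway matters because lipoprotein cholesterol hardly crosses the barrier from blood, so that neurons and glia depend on cholesterol made within the tissue.

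Levels are in FPKM (fragments scaled to transcript length and to the number of mapped fragments), the unit of the authors' tables. FPKM is per length, so that levels of different genes can be set side by side. Depth is not part of the tables. An estimate from the lowest values gave 13900000 to 14900000 fragments for Vehicle, 12200000 to 13400000 for CON-BDEV and 12400000 to 14300000 for SE-BDEV. All 8 genes fixed as markers of the sympathetic neuroblastoma identity of N2a cells, such as Phox2a and Hand2, were expressed, with summed levels between 855 and 982 FPKM in every library. Some of them moved with the groups: 4 of the 8 (Phox2a, Hand2, Gata3 and Dbh) were higher in every vesicle library than in every Vehicle library, 1 (Stmn2) was lower, and 3 overlapped. The share of all genes that separate in this way was not counted, so these counts do not show whether the markers are unusual. Phox2a separated narrowly, with 83.5 FPKM in its highest Vehicle library and 83.9 FPKM in its lowest vesicle library. Hand2 ranged from 144.8 to 164 FPKM in Vehicle and from 169.6 to 195 FPKM with vesicles, and Stmn2 from 151 to 163 FPKM and from 128 to 147 FPKM. Their part in the results on the enzymes was not tested. Of 23 markers of other brain cells and blood, 18 had a mean under 1 FPKM. Cldn5 of endothelium, Neurod6 of forebrain neurons and the globin gene Hbb-b1 are listed at 0 in all 12 libraries. An exact 0 in these tables can be a failed estimate, since Hmgcs1, an enzyme that cells use widely, is listed at 0 throughout as well. The summed level of the 23 ranged from 16.8 to 17.9 FPKM in Vehicle, from 16.2 to 18.1 FPKM in CON-BDEV and from 16.4 to 17.4 FPKM in SE-BDEV, so the groups overlapped.

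The arm was lower in both vesicle groups than in Vehicle. With CON-BDEVs 8 of the 9 members fell and 0 rose at an adjusted p under 0.05 (limma, over all genes tested), where 1.82% of 11320 genes fell and 1.02% rose. With SE-BDEVs 7 members fell and 0 rose, where 0.628% of 11311 genes fell and 0.292% rose. The median log2 fold change of the members was −0.60 with CON-BDEVs and −0.67 with SE-BDEVs, beside medians of 0.00 and 0.01 over all genes tested. Fold changes here are differences of log2(FPKM + 1), a scale that understates the change of low genes. In 8 of 9 members every library of a vesicle group lay below every Vehicle library, in CON-BDEV as in SE-BDEV, against 6.24% and 4.39% of all genes tested. Both comparisons use the same 4 Vehicle libraries, so they are not independent of each other. In bulk RNA, fewer cells expressing a gene and less RNA of it per cell cannot be told apart.

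The SE-BDEV count depended on the filter and on single libraries. With no filter on low values it was 0, with Lss and Cyp51 nearest to the threshold (limma adjusted p = 0.0554 for each). With the filter it was 2 without Vehicle replicate 1, 2 or 3, 3 without Vehicle replicate 4 and 3 without SE-BDEV replicate 3, while Lss and Cyp51 still passed in all 8 of these reduced fits. The CON-BDEV count stayed at 8 with no filter and with each library left out. Log2 fold changes kept their sign in all of these fits.

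**Figure D1:**
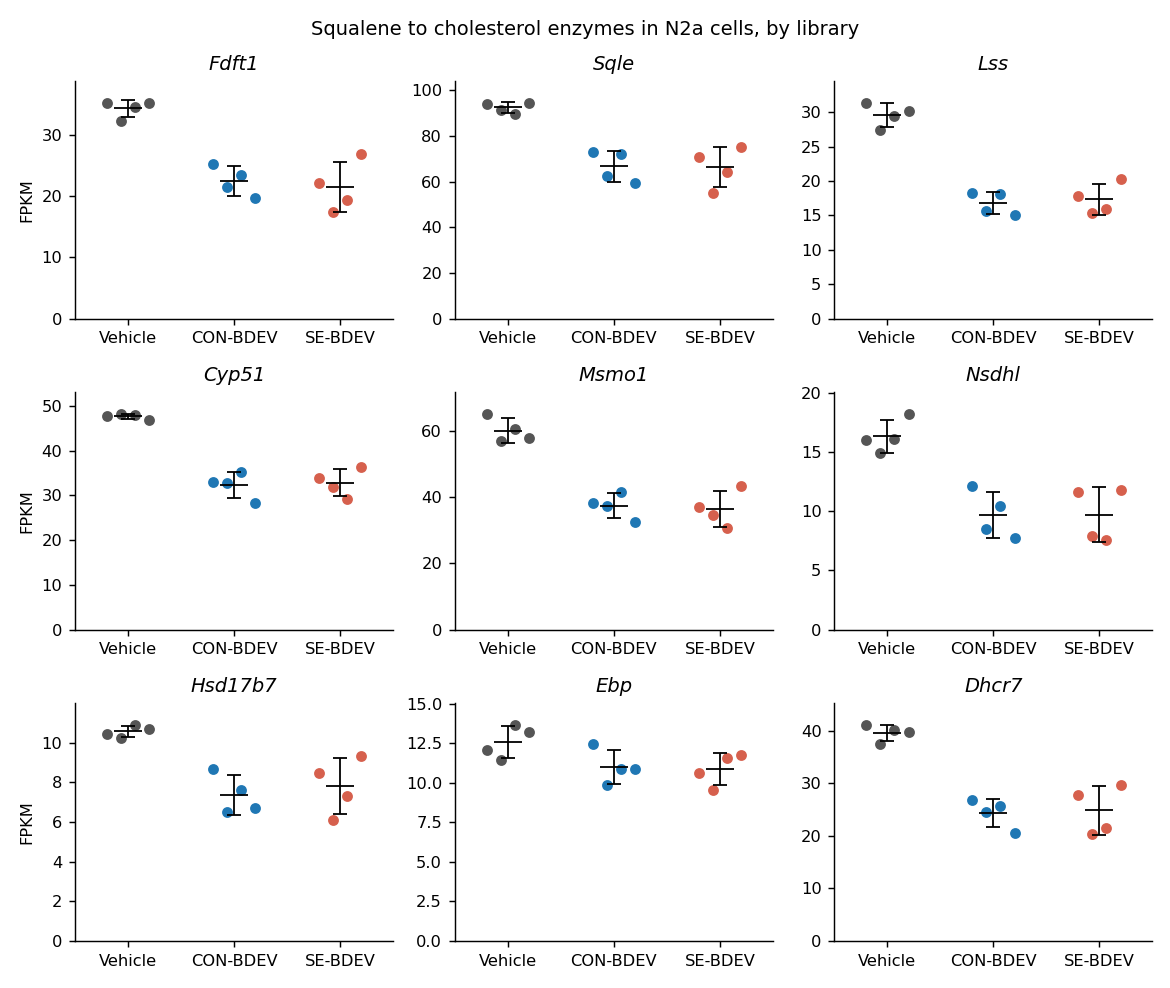
FPKM of the 9 enzymes in pathway order. Points are libraries, replicates 1 to 4 from left to right in each group, the dash is the group mean and the bars are ± 1 SD (n = 4). All vesicle libraries lie below all Vehicle libraries except for Ebp.

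Fdft1, squalene synthase, stands at the branch point where farnesyl diphosphate leaves for sterols. Its level was 35.3, 32.3, 34.6 and 35.2 FPKM in Vehicle replicates 1 to 4, 25.3, 21.4, 23.5 and 19.6 FPKM in CON-BDEV and 22.1, 17.4, 19.5 and 26.9 FPKM in SE-BDEV. The groups given vesicles did not overlap with Vehicle, and the highest of their libraries, SE-BDEV replicate 4, lay 5.39 FPKM below the lowest Vehicle library. The mean fell from 34.3 ± 1.39 to 22.5 ± 2.44 FPKM with CON-BDEVs (SD, n = 4 each; limma adjusted p = 0.00122 for a log2 fold change of −0.60 with a standard error of 0.07). With SE-BDEVs it fell to 21.5 ± 4.10 FPKM (SD, n = 4; limma adjusted p = 0.0178 for −0.67 with a standard error of 0.10). On mm9 the deposited locus of Fdft1 (chromosome 14, 63741299 to 63798415) is shared with Ctsb, a cathepsin gene. Ctsb was at 47.5, 45.8 and 46.1 FPKM in Vehicle, CON-BDEV and SE-BDEV, with log2 fold changes of −0.049 and −0.042 with CON-BDEVs and SE-BDEVs that did not pass (limma adjusted p = 0.455 and 0.671).

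Sqle, squalene epoxidase (chromosome 15, 59146647 to 59162748), uses oxygen and is a known control point of the pathway. It was the most abundant member in every group. Vehicle replicates 1 to 4 read 93.9, 91.5, 89.7 and 94.5 FPKM, CON-BDEV 72.9, 62.6, 72.2 and 59.4 FPKM, and SE-BDEV 70.9, 55.0, 64.3 and 74.9 FPKM. No vesicle library reached the Vehicle range, yet the highest stood at 81.1% of the Vehicle mean. The log2 fold change was −0.47 ± 0.06 with CON-BDEVs (standard error; limma adjusted p = 0.00279) and −0.48 ± 0.08 with SE-BDEVs (standard error; limma adjusted p = 0.0204). In mean FPKM this was 27.7% and 28.3% less than Vehicle.

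Lss, lanosterol synthase, folds the epoxide into the sterol skeleton (chromosome 10, 75994350 to 76024971, a deposited locus it shares with 4930483K19Rik, a gene under the filter with means of 0.774, 0.337 and 0.372 FPKM in Vehicle, CON-BDEV and SE-BDEV, so lower beside Lss and not tested). Its values were 31.4, 27.4, 29.4 and 30.1 FPKM in Vehicle, 18.3, 15.7, 18.1 and 15.1 FPKM in CON-BDEV and 17.9, 15.3, 15.9 and 20.2 FPKM in SE-BDEV, in order of replicate. Every vesicle library was at or below 68.5% of the Vehicle mean. Lss had the most negative log2 fold change of the 9 with all libraries in both comparisons, −0.79 ± 0.06 with CON-BDEVs (standard error; limma adjusted p = 0.000443) and −0.74 ± 0.08 with SE-BDEVs (standard error; limma adjusted p = 0.00569). Mean FPKM was 43.3% and 41.4% less than in Vehicle. With a library left out Lss remained the lowest in 8 of 8 CON-BDEV fits and in 5 of 8 SE-BDEV fits. Nsdhl was lower without SE-BDEV replicate 1 (−0.80 against −0.76) or Vehicle replicate 1 (−0.721 against −0.715), and Msmo1 without SE-BDEV replicate 2 (−0.696 against −0.689).

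Cyp51, the cytochrome P450 that takes the first methyl group off lanosterol (chromosome 5, 4080674 to 4104697), was the steadiest member in Vehicle, with 47.8, 48.2, 47.8 and 46.8 FPKM. CON-BDEV libraries read 33.0, 32.8, 35.3 and 28.4 FPKM and SE-BDEV libraries 33.8, 31.9, 29.3 and 36.3 FPKM. The lowest Vehicle library was thus 10.5 FPKM above the highest vesicle library. The log2 fold changes were −0.55 ± 0.05 and −0.53 ± 0.06 (standard error; limma adjusted p = 0.000887 with CON-BDEVs and 0.00569 with SE-BDEVs).

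Removal of the methyl groups on the A ring needs an oxidase, a dehydrogenase that also decarboxylates, and a ketoreductase, encoded by Msmo1, Nsdhl and Hsd17b7. Msmo1 (chromosome 8, 67196942 to 67212375) read 65.1, 56.8, 60.6 and 57.7 FPKM in Vehicle replicates 1 to 4, 38.3, 37.3, 41.5 and 32.6 FPKM in CON-BDEV and 37.0, 34.7, 30.6 and 43.4 FPKM in SE-BDEV. It fell by 37.7% and 39.3% in mean FPKM, with a gap of 13.4 FPKM between the highest SE-BDEV and the lowest Vehicle library (log2 fold changes −0.67 ± 0.07 and −0.71 ± 0.09, standard error; limma adjusted p = 0.000887 and 0.0122). Nsdhl (chromosome X, 70163860 to 70203867) read 15.99, 14.9, 16.1 and 18.2 FPKM in Vehicle, 12.1, 8.49, 10.4 and 7.72 FPKM in CON-BDEV and 11.6, 7.88, 7.59 and 11.8 FPKM in SE-BDEV. Both vesicle groups split widely for this gene, with a coefficient of variation of 20.4% in CON-BDEV and 23.6% in SE-BDEV against 8.45% in Vehicle. Its mean was 40.6% and 40.4% less than in Vehicle (log2 fold changes −0.71 ± 0.11 and −0.71 ± 0.13, standard error; limma adjusted p = 0.00808 and 0.0348).

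Hsd17b7 (chromosome 1, 171879668 to 171899336) was the least abundant of the 9 members in every group. It read 10.5, 10.3, 10.9 and 10.7 FPKM in Vehicle, 8.69, 6.51, 7.61 and 6.69 FPKM in CON-BDEV and 8.47, 6.10, 7.32 and 9.35 FPKM in SE-BDEV. The vesicle libraries again lay below all Vehicle libraries, but SE-BDEV replicate 4 came within 0.916 FPKM of them. The log2 fold change passed with CON-BDEVs (−0.48 ± 0.07, standard error; limma adjusted p = 0.00750). With SE-BDEVs it was −0.41 ± 0.10 (standard error; limma adjusted p = 0.0891), which did not pass. It passed there without SE-BDEV replicate 2 or replicate 4 and in no other of the 14 alternative fits, whose adjusted p ranged from 0.0314 to 0.236.

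Ebp, the isomerase that shifts a double bond within the B ring (chromosome X, 7762455 to 7770638), did not pass in either comparison. It read 12.1, 11.4, 13.7 and 13.2 FPKM in Vehicle, 12.5, 9.88, 10.9 and 10.9 FPKM in CON-BDEV and 10.6, 9.55, 11.6 and 11.7 FPKM in SE-BDEV. Both vesicle groups overlapped with Vehicle, and CON-BDEV replicate 1 reached 99.1% of the Vehicle mean. The log2 fold changes were −0.18 ± 0.07 and −0.20 ± 0.07 (standard error; limma adjusted p = 0.202 and 0.238; unadjusted p = 0.0288 and 0.0215), with 95% intervals from −0.33 to −0.022 and from −0.36 to −0.035. Ebp passed in 0 of the 14 alternative fits of each comparison. Nsdhl and Ebp are the 2 X-linked members.

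Dhcr7, the reductase that yields cholesterol from its dehydro precursor (chromosome 7, 151009072 to 151034315), fell like the early steps. It read 41.1, 37.5, 40.1 and 39.7 FPKM in Vehicle, 26.8, 24.5, 25.6 and 20.5 FPKM in CON-BDEV and 27.8, 20.3, 21.6 and 29.7 FPKM in SE-BDEV. All vesicle libraries were at or below 74.9% of the Vehicle mean. The log2 fold changes were −0.68 ± 0.07 and −0.67 ± 0.10 (standard error; limma adjusted p = 0.000887 and 0.0178).

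The authors' deposited tables, made with Cuffdiff, called 8 of the 9 members lower in each comparison. The q-value was 0.00505 for each of the 8 with CON-BDEVs and 0.00686 with SE-BDEVs. All 8 have the same Cuffdiff p-value of 5e-05 in both of those tables, so the q-values do not rank the members. Ebp was not called there (q = 0.363 and 0.446 in the authors' deposited tables). Those tables called 1.17% of 11912 tested genes lower with CON-BDEVs and 0.796% of 11928 with SE-BDEVs. Hsd17b7 with SE-BDEVs is the member on which the authors' call and limma differ. The authors' calls and those of limma rest on the same libraries.

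**Figure D2:**
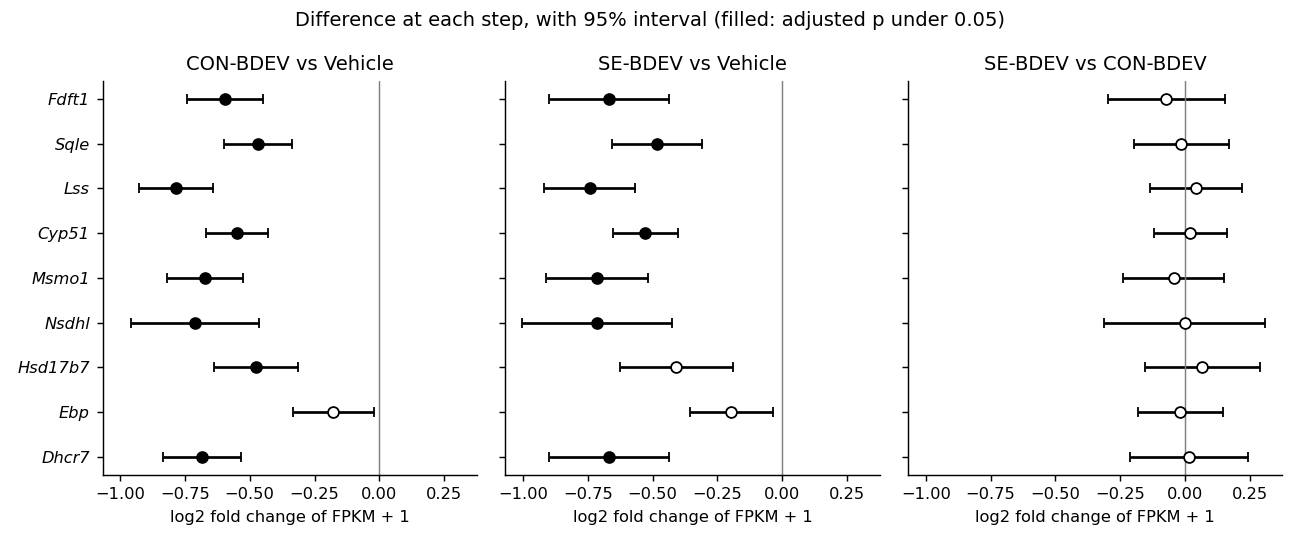
Log2 fold change of FPKM + 1 for each enzyme in pathway order in 3 comparisons, with 95% intervals from limma; filled points passed at an adjusted p under 0.05. Ebp is nearest to 0 in both comparisons with Vehicle, and the intervals of SE-BDEV against CON-BDEV all include 0.

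The direct comparison asked whether the source of the vesicles mattered for these enzymes. SE-BDEV and CON-BDEV came from separate tables, and the scales were compared through the Vehicle columns that both hold, whose scale factor differed by at most 0.0336% per library. None of the 9 members passed in SE-BDEV against CON-BDEV (limma; 0 at an unadjusted p under 0.05), and the vesicle groups overlapped for each member, where 0.628% of all genes lay wholly lower and 0.76% wholly higher in SE-BDEV. Over all genes 0 of 11312 passed (0%), with 2.62% at an unadjusted p under 0.05. Log2 differences ranged from −0.073 (Fdft1) to 0.066 (Hsd17b7). The 95% intervals bound how unlike the groups could be. The narrowest, for Cyp51, ran from −0.12 to 0.16, and the widest, for Nsdhl, from −0.31 to 0.31. On the FPKM + 1 scale the members' intervals together reach from 0.805-fold to 1.24-fold, so differences of that size are not excluded. For Hsd17b7, which passed with CON-BDEVs only, the difference itself was 0.066 (95% interval −0.16 to 0.29).

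Of the 8 ratios of neighbouring steps, 5 did not overlap with Vehicle in either vesicle group, 1 overlapped in both and 2 overlapped in SE-BDEV only. Per library, the log2 ratio of Lss to Sqle averaged −1.64 ± 0.07 in Vehicle, −1.99 ± 0.01 in CON-BDEV and −1.93 ± 0.08 in SE-BDEV (SD, n = 4 each), without overlap between Vehicle and either vesicle group. The cyclase thus stood lower relative to the epoxidase before it. The ratio of Ebp to Hsd17b7 was higher with vesicles, at 0.25 ± 0.08 in Vehicle, 0.58 ± 0.08 in CON-BDEV and 0.49 ± 0.19 in SE-BDEV (SD, n = 4 each). The ratio of Dhcr7 to Ebp was 1.66 ± 0.10 in Vehicle against 1.14 ± 0.17 and 1.18 ± 0.23 (SD, n = 4 each), again without overlap with Vehicle. Nsdhl and Msmo1, by contrast, had a ratio that overlapped with Vehicle in both groups (−1.88 ± 0.15, −1.97 ± 0.21 and −1.93 ± 0.20 in Vehicle, CON-BDEV and SE-BDEV, SD, n = 4 each). The ratio of Cyp51 to Lss stood above Vehicle by 0.26 and 0.23 and that of Hsd17b7 to Nsdhl by 0.24 and 0.32 (log2, CON-BDEV and SE-BDEV), both without overlap. Sqle to Fdft1 (0.14 and 0.21 above Vehicle) and Msmo1 to Cyp51 (differences of −0.12 and −0.19) were the pairs that overlapped in SE-BDEV only. Some separations were thin. Ebp to Hsd17b7 went down to 0.3256 in SE-BDEV, against a highest Vehicle value of 0.3248. Msmo1 to Cyp51 went up to 0.2360 in CON-BDEV, against a lowest Vehicle value of 0.2367. Neighbouring ratios share a gene, so the counts are not of independent pairs. The share of other gene pairs that separate in this way was not counted, and the ratios were not tested.

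The levels of the enzymes had a clear order in Vehicle. It ran Sqle, Msmo1, Cyp51, Dhcr7, Fdft1, Lss, Nsdhl, Ebp, Hsd17b7, from 92.4 to 10.6 FPKM, and no neighbours in that order overlapped. In both vesicle groups Ebp stood above Nsdhl by the mean, 11.0 against 9.68 FPKM in CON-BDEV and 10.9 against 9.72 FPKM in SE-BDEV, but there the libraries of these neighbours overlapped. Msmo1 and Cyp51, Dhcr7 and Fdft1, and Nsdhl and Hsd17b7 also overlapped in both vesicle groups, as did Cyp51 and Dhcr7 and Fdft1 and Lss in SE-BDEV, so their order is not settled beyond the spread.

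**Figure D3:**
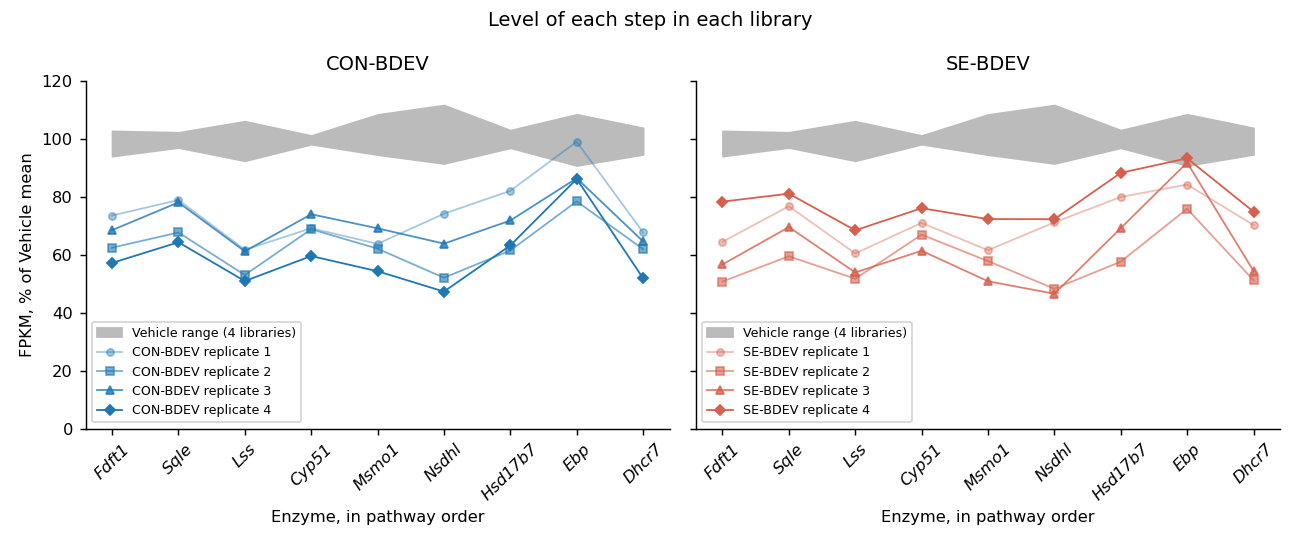
FPKM of each enzyme in each vesicle library as a percent of the Vehicle mean, in pathway order; the grey band is the range of the 4 Vehicle libraries. SE-BDEV replicate 4 is the highest of its group at all 9 enzymes, and CON-BDEV replicate 4 the lowest of its group at 7.

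The libraries given vesicles differed among themselves. SE-BDEV replicate 4 was the highest library of its group for 9 of 9 members, and SE-BDEV replicate 2 the lowest for 6. CON-BDEV replicate 1 was the highest of its group for 7 members and CON-BDEV replicate 4 the lowest for 7. The members did not all share 1 level within a library: in SE-BDEV replicate 3 Ebp stood at 91.8% of its Vehicle mean and Nsdhl at 46.6%. CON-BDEV replicate 3 was the highest of its group for Cyp51 and Msmo1, and CON-BDEV replicate 2 the lowest for Hsd17b7 and Ebp. The median member stood at 71.0%, 57.6%, 56.7% and 76.1% of its Vehicle mean in SE-BDEV replicates 1 to 4. It stood at 73.6%, 62.1%, 69.2% and 57.2% in CON-BDEV replicates 1 to 4. The members' coefficient of variation had a median of 14.8% in SE-BDEV and 10.2% in CON-BDEV against 4.06% in Vehicle. Over 11312 genes the medians were 6.83%, 5.58% and 4.27%. Estimated depth was 13100000, 12800000, 12400000 and 14300000 fragments in SE-BDEV replicates 1 to 4, in the same order as the median member. In CON-BDEV replicates 1 to 4 it was 13400000, 12200000, 13200000 and 12900000 fragments, which is not the order of the median member, since replicate 2 was shallower than replicate 4 and had the higher median. Its part in the result was not tested.

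The rest of the arm was covered by a list of 10 further enzymes and partners, all of them tested. With CON-BDEVs 4 fell and 0 rose, with SE-BDEVs 2 fell and 0 rose, and the median log2 fold change was −0.17 in both. Among all genes tested, 1.82% fell with CON-BDEVs and 0.628% with SE-BDEVs. Tm7sf2, a sterol reductase acting after Cyp51, fell from 6.97 ± 0.853 FPKM to 4.52 ± 0.448 and 4.15 ± 0.978 FPKM (SD, n = 4 each; limma adjusted p = 0.00830 with CON-BDEVs and 0.0491 with SE-BDEVs). Lbr, which carries the same reductase activity in the inner nuclear membrane, was at 48.2 ± 0.530 FPKM in Vehicle and at 43.5 ± 1.78 and 43.5 ± 2.21 FPKM with vesicles (SD, n = 4 each). It fell with CON-BDEVs (log2 fold change −0.15; limma adjusted p = 0.0429, and 2 of 8 fits with a library left out) and did not pass with SE-BDEVs (−0.15; 0.124). Sc5d, the desaturase between Ebp and Dhcr7, fell from 17.9 ± 1.63 to 12.9 ± 0.974 and 12.1 ± 1.18 FPKM (SD, n = 4 each; limma adjusted p = 0.00660 and 0.0158). The scaffold gene Erg28 was at −0.19 and −0.18 and did not pass (limma adjusted p = 0.0991 and 0.0546). Among the electron donors and other partners, Cyb5b fell with CON-BDEVs (−0.20, limma adjusted p = 0.0122). Por, Cyb5r3, Cyb5a and Pgrmc1 did not pass in either comparison. The SE-BDEV count of this list was 0 without Vehicle replicate 1, 2 or 3, and the CON-BDEV count was 3 to 4 with a library left out.

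Upstream, the enzymes that make farnesyl diphosphate were lower as well. Of 8 genes of the mevalonate arm 7 were tested, since Hmgcs1 is listed at 0 in all libraries, which may be a failed estimate and not its level. With CON-BDEVs 7 fell (median log2 fold change −0.58) and with SE-BDEVs 5 fell (median −0.65). The SE-BDEV count was 2 without SE-BDEV replicate 3 or any 1 Vehicle library. Fdps, which makes farnesyl diphosphate, fell from 237 ± 6.87 to 136 ± 16.3 and 130.4 ± 19.8 FPKM (SD, n = 4 each; limma adjusted p = 0.000655 and 0.00569) and passed in all 8 fits with a library left out of each comparison. Per library the median of the mevalonate arm, as a log2 difference from the Vehicle mean, was −0.45, −0.94, −0.66 and −0.39 in SE-BDEV replicates 1 to 4, beside −0.48, −0.77, −0.79 and −0.38 for the 9 members. Genes that send farnesyl diphosphate elsewhere, to prenylated proteins, dolichol, ubiquinone and heme A, did not pass: 0 of 8 were called in either comparison. Their median log2 fold changes were 0.05 and 0.05 (limma; 2 and 1 at an unadjusted p under 0.05 with CON-BDEVs and SE-BDEVs). Of all genes tested 1.82% fell and 1.02% rose with CON-BDEVs, and 0.628% and 0.292% with SE-BDEVs. The count of 0 of 8 is near those shares and does not set these genes apart.

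The sensing and uptake list moved only in part. Of 9 tested genes 5 fell with CON-BDEVs and 3 with SE-BDEVs, and the SE-BDEV count was 0 without any 1 Vehicle library. The shares of all tested genes that fell were 1.82% with CON-BDEVs and 0.628% with SE-BDEVs. The transcription factor gene Srebf2 fell from 126 ± 2.29 to 90.7 ± 7.44 and 87.6 ± 14.4 FPKM (SD, n = 4 each; limma adjusted p = 0.000954 and 0.0299). With SE-BDEVs Srebf2 passed in only 2 of the 8 fits with 1 library left out. Insig1, which retains the SREBP complex in the endoplasmic reticulum, fell as well (log2 fold changes −0.77 and −0.92; limma adjusted p = 0.00440 and 0.0280), as did Stard4, a sterol carrier (−0.48 and −0.53; 0.00379 and 0.0158). Scap, Insig2 and the protease genes Mbtps1 and Mbtps2 lay between −0.07 and 0.05 and did not pass. Among genes for the later fates of sterols (esters, oxysterols and export), 1 of 7 tested fell in each comparison. That was the lysosomal sterol carrier Npc2 (log2 fold changes −0.19 and −0.24; limma adjusted p = 0.00989 and 0.0178). With SE-BDEVs Npc2 passed in only 3 of the 8 fits with 1 library left out. Abca1, the cholesterol exporter, was at 0.18 and 0.19 and did not pass (limma adjusted p = 0.154 and 0.415).

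**Figure D4:**
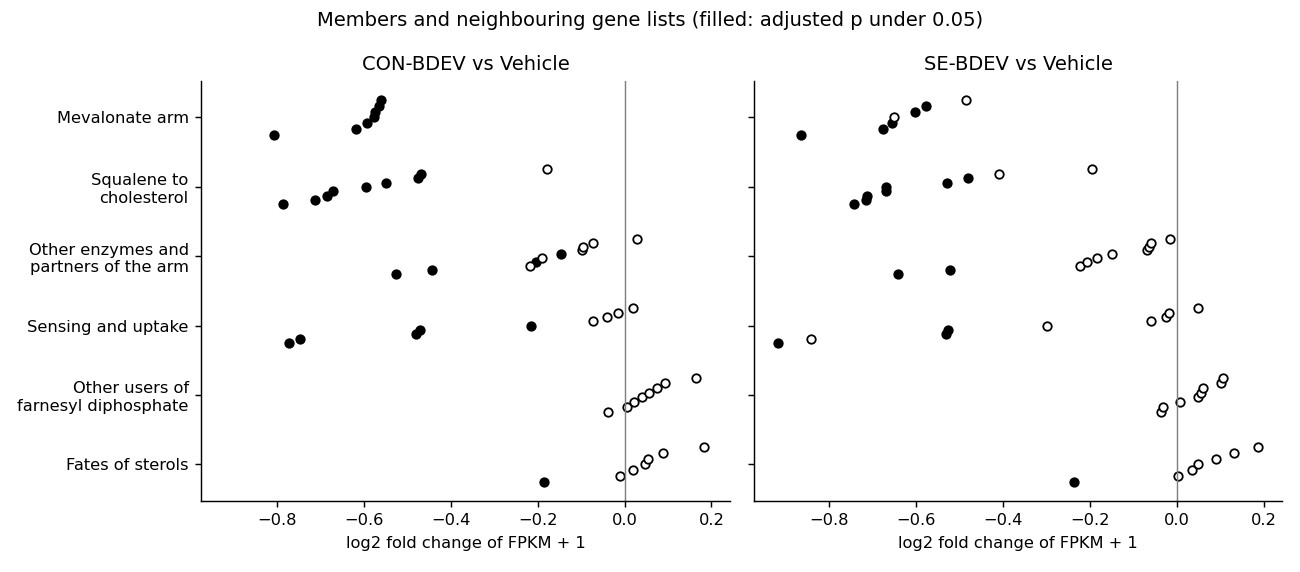
Log2 fold change of FPKM + 1 for the members and the other gene lists, each point a gene; filled points passed at an adjusted p under 0.05. The mevalonate arm and the members other than Ebp lie to the left; among other users of farnesyl diphosphate and the fates of sterols, Npc2 is the filled point in each panel, and open points reach 0.19 (Abca1 with SE-BDEVs).

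A search over 10784 other genes asked which followed the members most closely. Each gene's log2(FPKM + 1) was set relative to its Vehicle mean and compared with the median member over the 12 libraries. Among the 6 genes with the smallest root mean square differences were Scd2 (0.0644), Pmvk (0.0752), Idh1 (0.0753), Slc25a1 (0.0808) and Fads2 (0.0911), in log2 units. Among the members themselves, Fdft1 (0.0624) and Dhcr7 (0.0778) lay nearest to the median and Ebp (0.357) farthest, and a member contributes to the median it is compared with.

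Promoter windows from RefSeq (GRCm38.p6, 250 bases before to 50 after an annotated start) were at hand for 7 of the 9 members: Lss, Cyp51, Msmo1, Nsdhl, Hsd17b7, Ebp and Dhcr7, the last with 3 windows. They were searched on both strands for TCACNCCAC and for a longer form with up to 1 mismatch, overlapping forms of the sterol regulatory element that SREBPs bind, and for CCAAT and GGGCGG, the boxes of NF-Y and Sp1, which act beside SREBPs at many sterol genes. CCAAT was found in all 7 genes, in 7 of 9 windows, where 37.4% of 32851 windows hold it. GGGCGG was found in 8 of 9 windows against 35.7% of all windows. The 32851 windows were not matched to the members for expression or base composition, and 3 of the 9 windows belong to Dhcr7. Whether these shares are particular to the arm was not tested. The strict sterol element was in 0 of 9 windows, against 1.24% of all, and the looser form in 1, against 1.95%. That match, in Nsdhl, is ATCACCCAAC at position −206 from the start. At shares as low as 1.24% and 1.95%, 9 windows cannot show whether the members lack the sterol element. Forms with more mismatches were not searched. The windows printed are those of Lss and Msmo1, which fell in both comparisons, and of Nsdhl and Ebp, the X-linked pair of which only Nsdhl passed. Capitals mark every match to the 4 patterns, and ATTGG and CCGCCC are CCAAT and GGGCGG read on the other strand. Windows lie at chr10:76531355-76531654 (+ strand), chr8:64733529-64733828 (− strand), chrX:72918271-72918570 (+ strand) and chrX:8193463-8193762 (− strand) in that order.
Lss: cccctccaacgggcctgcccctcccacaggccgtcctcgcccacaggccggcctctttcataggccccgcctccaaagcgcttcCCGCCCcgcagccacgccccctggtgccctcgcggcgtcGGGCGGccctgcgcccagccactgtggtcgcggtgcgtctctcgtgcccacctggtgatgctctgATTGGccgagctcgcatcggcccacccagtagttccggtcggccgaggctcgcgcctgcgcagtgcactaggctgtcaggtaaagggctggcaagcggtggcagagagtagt
Msmo1: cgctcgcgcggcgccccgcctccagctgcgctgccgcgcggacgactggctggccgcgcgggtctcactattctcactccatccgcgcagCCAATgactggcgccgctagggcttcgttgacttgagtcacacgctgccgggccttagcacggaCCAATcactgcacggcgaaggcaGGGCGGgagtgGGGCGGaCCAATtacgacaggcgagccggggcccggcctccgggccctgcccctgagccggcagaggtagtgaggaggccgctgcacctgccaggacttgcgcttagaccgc
Nsdhl: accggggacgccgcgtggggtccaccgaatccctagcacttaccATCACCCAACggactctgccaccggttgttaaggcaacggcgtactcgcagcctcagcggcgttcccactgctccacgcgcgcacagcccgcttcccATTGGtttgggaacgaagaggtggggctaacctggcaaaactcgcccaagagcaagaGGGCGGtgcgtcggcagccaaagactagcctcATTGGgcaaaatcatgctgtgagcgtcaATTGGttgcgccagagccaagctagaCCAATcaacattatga
Ebp: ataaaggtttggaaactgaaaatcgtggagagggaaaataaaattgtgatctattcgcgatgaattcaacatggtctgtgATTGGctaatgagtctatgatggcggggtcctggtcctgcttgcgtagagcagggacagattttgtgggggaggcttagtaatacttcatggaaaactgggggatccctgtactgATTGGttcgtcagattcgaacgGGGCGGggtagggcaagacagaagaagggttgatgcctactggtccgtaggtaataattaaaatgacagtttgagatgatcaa

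Msmo1 carries 3 CCAAT boxes, at positions −160, −96 and −55, with 2 GGGCGG boxes at −73 and −62. Nsdhl holds 4, at −109, −20, 9 and 35. Ebp, which did not pass, holds 2, at −170 and −55, with GGGCGG at −33, so these patterns occur in members that fell and in the member that did not pass. Lss has a single CCAAT box at −62. A match describes the letters of the window and not binding in these cells.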

How the data were processed

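Polyadenylated RNA of 12 N2a libraries (3 groups of 4, by title) was sequenced from strand-keeping libraries, per the labels' protocols. The authors deposited FPKM per gene and library in 2 tables, and 2 tables of their comparisons with group FPKM, log2 fold change, a test score, p-value and q-value, per the file headers. TopHat2, Cuffdiff and mm9 are named in the submitters' processing notes; the sources used here give neither versions nor an annotation. Starts of loci were shifted by 1 base to count from 1.

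The 4 Vehicle libraries stood in both tables, with scale factors that differed by at most 0.0336%, and their mean over both tables gave the printed levels and entered the 12-library fit. Log2(FPKM + 1) was tested with limma 3.58.1 in R 4.3.3 (empirical Bayes with trend, two-sided, Benjamini-Hochberg over all genes averaging 1 FPKM or more, threshold 0.05): each vesicle group against Vehicle within its table, and SE-BDEV against CON-BDEV over 12 libraries. The fit was tested on simulated data. Depth was estimated from values up to 0.05 FPKM of genes whose longest GENCODE transcript has 1500 to 8000 bases, taken as 1 fragment. Members, lists and tests were chosen with earlier results of these data known. All 9 members are named; of other lists up to 4 genes per comparison were named by smallest adjusted p, the 6 genes of most similar pattern by root mean square difference, and any others after their values were seen. Some genes that these rules would name are not reported here. Erg28 was found under its older symbol through RefSeq names of GRCm38.p6. Alternatives were a pseudocount of 0.1, no filter, median scaling, no trend, a replicate block, other libraries in the fit, and each library left out. Python 3.11.15 with matplotlib 3.10.9 drew the figures.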

Additional observations from a re-analysis of the deposited data

How the results depend on the processing

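With CON-BDEVs the count of members that fell was 8 in all 14 alternatives. With SE-BDEVs it was 6 to 7 in the alternatives that kept all 8 libraries and the filter, 0 with no filter on low values (limma; 0 of all genes passed there, where 17444 were tested in place of 11311), and 2 to 8 with a library left out: 8 without SE-BDEV replicate 2 or 4 and 2 to 3 without SE-BDEV replicate 3 or any 1 Vehicle library. With no filter the adjusted p of Lss and Cyp51 was 0.0554. The cause was not tested. The member lost without the variance trend was Nsdhl. All log2 fold changes against Vehicle kept their sign in all alternatives. In SE-BDEV against CON-BDEV the count was 0 in all 14 alternatives (limma), and with a library left out the log2 differences, close to 0, changed sign for every member at least once: Fdft1 −0.18 to 0.017, Sqle −0.076 to 0.071, Lss −0.031 to 0.096, Cyp51 −0.040 to 0.072, Msmo1 −0.13 to 0.034, Nsdhl −0.095 to 0.10, Hsd17b7 −0.016 to 0.17, Ebp −0.065 to 0.038, Dhcr7 −0.073 to 0.10.

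Replicate numbers are shared between groups, but same-numbered samples were not alike throughout. Of 12 same-numbered pairs 2 had a correlation of deviations above 0.1, with a range of −0.12 to 0.30. The same 2 of 12 correlated best with their own number. They were pairs of CON-BDEV with SE-BDEV, replicate 1 (0.20) and replicate 2 (0.30). Replicates 3 and 4 of these groups stood at −0.07 and −0.12. With a replicate block 7 members fell with SE-BDEVs, 8 with CON-BDEVs and 0 differed between the vesicle groups. Over all genes the block left 48 and 135 calls with SE-BDEVs and CON-BDEVs, against 104 and 321 without it. Depth is an approximate estimate and sets no interval.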
